A study of Mus musculus with 12 samples.

Results

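The genes described here are 44 receptor tyrosine kinases taken by symbol from a list, out of 56748 genes in the deposited table, and all 44 have a row in each of the 12 libraries. Rod translating ribosome affinity purification (TRAP) and whole-retina RNA were sequenced from mice 2 weeks old. All animals carried RiboTag, in which Cre adds a hemagglutinin (HA) tag to the ribosomal protein Rpl22, on both alleles, and the i75 line, in which a rod-specific promoter drives Cre. Control animals had 1 floxed and 1 intact allele of Shp2 (Shp2 fl/+, here Het), so that they too lose an allele in rods, and knockout animals had both alleles floxed (Shp2 fl/fl, here KO). The sample titles call the controls wt although their genotype is heterozygous. There were 3 libraries each of Het rods, KO rods, Het retina and KO retina. Litters were mixed, and the records do not say whether a library pools animals. P-values therefore measure the spread between these libraries, which may be partly technical.

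Receptor tyrosine kinases span the cell membrane and carry a kinase domain inside the cell. A bound ligand brings receptors together, they phosphorylate each other on tyrosine, and adaptors dock there. Shp2, the tyrosine phosphatase encoded by Ptpn11, is one of the proteins recruited in this way and is known for helping to pass the signal on to Ras and ERK. In the retina these receptors are best known from glia, blood vessels and inner neurons, and the question of the comparison is which of them are on ribosomes of rods.

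The values are whole numbers proportional to reads, each library having been multiplied by 1 factor before deposit. Totals were 16263948 to 16265259 in the rod libraries and 14525527 to 14527992 in the retina libraries. The factors recovered from the spacing of low values place the reads, rounded, at 11890000 to 25280000 in rods and at 9980000 to 19230000 in the 5 retina libraries where a factor could be fixed. In these 11 libraries 3 reads were worth a value of 1.93 to 4.37, which is the size below which a value says little, for counting error alone.

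Ptpn11 was read first as a check of the labels. Het rods gave 2511, 2439 and 2431, and KO rods gave 1735, 2139 and 1971. The groups did not overlap, as for 20.4% of all genes tested in that direction. The log2 fold change was -0.26 (SE 0.0942, n = 3 and 3, limma, adjusted p = 0.0636), short of the threshold. Each value sums reads over the whole gene, and reads of the floxed part are not listed apart. In retina Ptpn11 overlapped between Het (2390, 2512 and 2125) and KO (2205, 2147 and 2466). All 15 rod markers were called higher in Het rods than in the retina of Het mice, with a median log2 fold change of 1.8. All 10 cone markers were called lower (median -1.11), as were all 10 Müller glia markers (median -4.59), including the glutamine synthetase gene Glul. The Müller glia markers were low but not at 0, summing to 2240, 2746 and 3765 in Het rods against 55651, 78389 and 71839 in Het retina, so that a low value in a rod library does not by itself place a gene on ribosomes of rods. Fewer cells of a type and less RNA per cell cannot be told apart in these bulk samples.

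Lens RNA set the libraries apart. The summed value of 6 lens markers, Cryaa the most abundant, was 113 in Het retina 1 and 223835 and 229518 in the other Het retinas. It was 63386, 152943 and 714969 in KO retinas 1 to 3. Among rod libraries it was 5, 2869 and 4529 for Het, and 1816, 3627 and 12828 for KO. KO retina 3 also led in the sums of 8 markers of the retinal pigment epithelium (RPE; 9816 against 475 to 4067 in the other retinas) and 6 pericyte markers (3053 against 690 to 1758).

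The promoter sequences of the TAM receptors Tyro3, Axl and Mertk and of Epha7 are shown because Tyro3 and Epha7 led the rod levels while Axl and Mertk, kin of Tyro3, were among the most depleted. TAM receptors bind Gas6 and protein S and are known for the clearance of dead cells and shed photoreceptor tips, and Epha7 is a receptor for the membrane-bound ephrin-A ligands, known for guiding axons. The sequences are the RefSeq windows of GRCm38.p6, 250 bases before to 50 bases after the start site, 5′ to 3′ on the strand of the gene, and capitals mark CG dinucleotides. Tyro3 lies at chr2:119799264-119799563 on the plus strand, Axl at chr7:25788684-25788983 on the minus strand, Mertk at chr2:128698665-128698964 on the plus strand, and the first of the Epha7 entries at chr4:28812881-28813180 on the plus strand.
Tyro3: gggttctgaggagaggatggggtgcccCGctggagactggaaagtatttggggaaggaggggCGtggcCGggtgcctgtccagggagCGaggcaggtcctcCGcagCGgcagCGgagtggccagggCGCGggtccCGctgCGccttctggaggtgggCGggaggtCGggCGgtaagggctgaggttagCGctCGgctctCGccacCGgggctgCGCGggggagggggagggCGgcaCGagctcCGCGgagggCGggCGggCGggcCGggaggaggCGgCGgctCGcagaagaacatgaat
Axl: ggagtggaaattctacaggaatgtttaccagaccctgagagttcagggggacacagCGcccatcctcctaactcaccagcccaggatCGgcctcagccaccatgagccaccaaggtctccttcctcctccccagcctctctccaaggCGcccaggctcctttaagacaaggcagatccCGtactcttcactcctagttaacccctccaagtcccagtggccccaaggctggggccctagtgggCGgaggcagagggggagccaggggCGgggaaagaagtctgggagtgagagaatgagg
Mertk: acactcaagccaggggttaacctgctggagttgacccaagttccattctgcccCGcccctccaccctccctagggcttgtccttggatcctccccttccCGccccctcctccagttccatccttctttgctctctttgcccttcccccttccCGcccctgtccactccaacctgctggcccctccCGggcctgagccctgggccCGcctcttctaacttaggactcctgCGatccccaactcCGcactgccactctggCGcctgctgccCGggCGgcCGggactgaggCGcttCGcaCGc
Epha7: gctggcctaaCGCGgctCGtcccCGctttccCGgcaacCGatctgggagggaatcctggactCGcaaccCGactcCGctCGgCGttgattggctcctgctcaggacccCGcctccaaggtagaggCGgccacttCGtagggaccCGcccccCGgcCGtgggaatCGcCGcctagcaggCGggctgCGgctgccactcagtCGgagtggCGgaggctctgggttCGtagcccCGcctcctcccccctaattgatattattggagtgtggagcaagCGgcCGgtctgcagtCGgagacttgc
Tyro3 held 31 CG dinucleotides and Epha7 held 28, and Axl 6 and Mertk 14, but many CG dinucleotides were also held by receptors called lower in rods, such as Epha8 with 56, Met with 34 and Epha5 with 30. The median was 18 over the 38 members with an entry and 7 over all 32851 windows. The motif TAATCC, the core bound by the photoreceptor factors Crx and Otx2, was searched with its reverse complement GGATTA, that is on both strands. It occurred in 0 of the 38 members and in 7.06% of all windows. Erbb3, Fgfr1, Pdgfrb, Ntrk3, Ret and Insrr were not matched.

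The order of the receptors in Het rods was set by level per length, the value divided by the length of the longest coding transcript and then expressed per 1000000 of the library's sum (mean ± SD, n = 3). Epha7 came first at 8.99 ± 1.42 and Tyro3 second at 5.71 ± 1.20. Ntrk3, the receptor of neurotrophin-3, followed at 1.65 ± 0.391, then Ephb2 at 1.47 ± 0.211, Epha5 at 1.35 ± 0.559 and Ddr1, a receptor for collagen, at 1.08 ± 0.267. Ephb3 (0.824 ± 0.372) and Ntrk2, the receptor of brain-derived neurotrophic factor (0.613 ± 0.132), completed the highest 8. Neighbours from Ntrk3 down overlapped in their libraries, whereas all 3 values of Epha7 and of Tyro3 lay above every value of the members below them. With the union of all exons as length Epha7 and Tyro3 still led, and the order below them changed. Ptpn11, for scale, stood at 77.1 ± 3.21. Only 6 of the 44 reached a level of 1 in Het rods and 5 did in KO rods, against 34 in Het retina and 35 in KO retina. Levels are relative to each library's sum, without the further scaling used later to compare the fractions. In Het that scaling moves the median log2 fold change of all genes, rods over retina, from -0.51 with library totals to -0.11. The order in KO rods was Tyro3 (9.74 ± 5.72, with 16.3 in KO rods 2), Epha7 (7.94 ± 0.996), Ddr1 (2.31 ± 0.350), Ephb2 (2.03 ± 0.323) and Ntrk3 (1.60 ± 0.281).

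The order in retina was another one. By the mean Ddr1 led in Het retina at a level per length of 34.0 ± 17.9, before Ntrk2 (24.6 ± 1.37), Ret, the receptor of the GDNF family (19.7 ± 3.34), and Epha4 (16.6 ± 2.37). The libraries of Ddr1 (26.16, 54.52 and 21.35) and Ntrk2 (24.33, 23.3 and 26.02) overlapped, Ntrk2 being the higher in Het retina 3. By their Het retina means Epha7 ranked 8, Tyro3 14 and Ntrk3 28. The 44 levels summed to 26.5 ± 1.08 in Het rods and 254 ± 32.4 in Het retina. Epha7, Tyro3 and Ntrk3 together made up 61.7% ± 4.41 of that sum in Het rods and 7.70% ± 1.65 in Het retina. In KO libraries the shares were 58.7% ± 8.2 in rods and 7.2% ± 2.21 in retina.

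**Figure D1:**
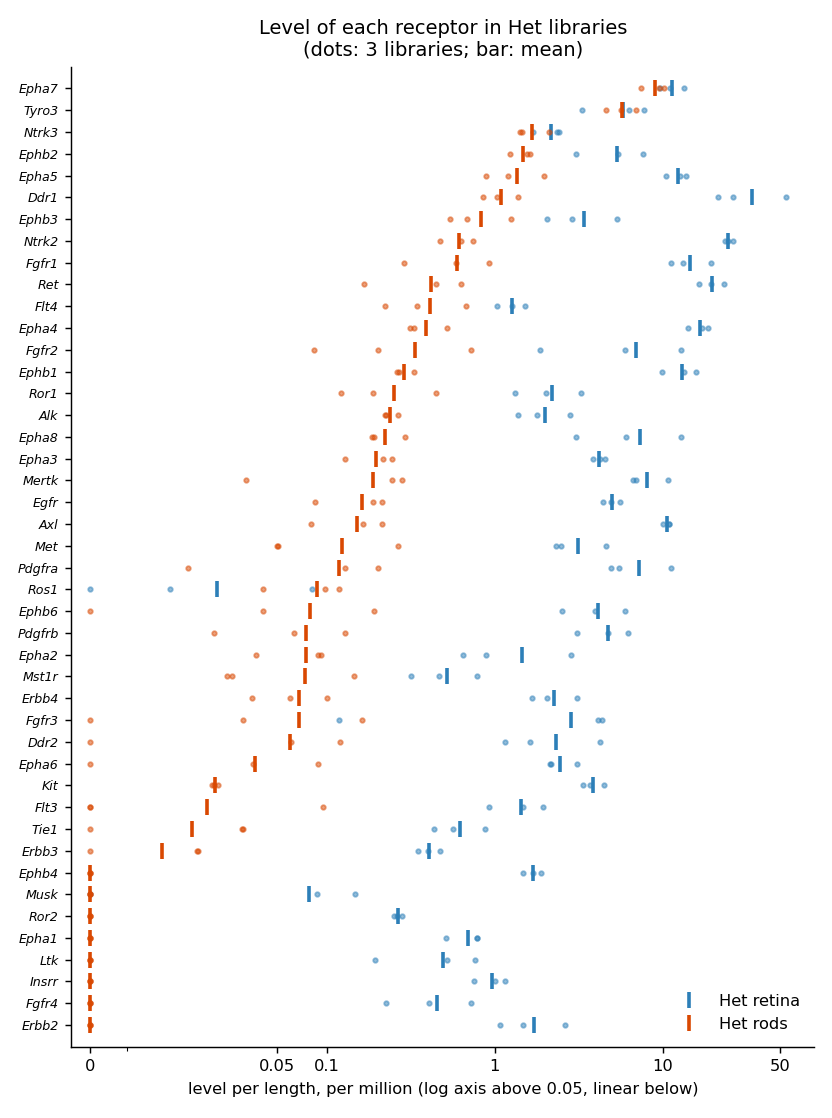
Level per length of the 44 receptors in Het rods (orange) and Het retina (blue), ordered by the Het rod mean; dots are the 3 libraries of a group and bars their means, on an axis that is logarithmic above 0.05 and linear below. For Epha7, Tyro3 and Ntrk3 the means of both groups lie close together, most others are well to the left in rods, and 8 receptors are at 0 in all 3 Het rod libraries.

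At the low end, 8 receptors had a value of 0 in all 3 Het rod libraries: Erbb2, Fgfr4, Ltk, Ror2, Musk, Insrr, Epha1 and Ephb4. Set against 3 reads over the group, Erbb2, the ERBB receptor without a ligand of its own, was at least 39.9-fold lower in Het rods than in retina of the same genotype, Ephb4 at least 34.1-fold and Insrr at least 23.3-fold. For Musk, the receptor of the neuromuscular junction, retina was itself close to that floor (3, 0 and 2). Fgfr4, Ltk and Musk were at 0 in KO rods too. Only 9 of the 44 had a value of at least 10 in every Het rod library, namely Epha7, Tyro3, Ntrk3, Ephb2, Epha5, Ddr1, Ephb3, Ntrk2 and Epha4.

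Receptors of Het rods were then compared with those of Het retina, to ask which rod ribosomes carried at no less than the retinal level. Of 38 members past the filter on low values, 0 were called higher in rods, 35 were called lower (92.1%) and 3 were not called. Among all 16110 genes tested, 21.4% were called higher and 36.8% lower (by limma, a call needing an adjusted p under 0.05 with a log2 fold change beyond 0.5 either way). The members' median log2 fold change was -4.28, against -0.11 over all genes. A member needed only its 3 retina libraries to pass the filter, and 6 members did not pass it. Groups did not overlap for the 35 called lower, as for 40% of all genes in that direction. In KO mice, whose libraries are separate, 37 members were tested, with 0 higher, 34 lower (91.9%) and the same 3 not called (median -3.97). The background there was 25.7% higher and 36.5% lower.

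Tyro3, Epha7 and Ntrk3 were the 3 not called. Tyro3 had values of 168, 216 and 98 in Het retina and of 113, 178 and 146 in Het rods. In KO it had 173, 183 and 174 in retina and 148, 431 and 185 in rods. The Het groups overlapped, while after scaling the KO groups did not (Het log2 fold change 0.15, SE 0.31, adjusted p = 0.689). In that direction 32.7% of all genes did not overlap in KO. The KO difference was 0.73 (SE 0.344, adjusted p = 0.0884), and 0.31 without KO rods 2, the library at 431.
Epha7 had values of 540, 407 and 500 in Het retina and 379, 367 and 290 in Het rods, and of 495, 522 and 318 in KO retina and 339, 272 and 324 in KO rods. Its log2 fold change was -0.23 (SE 0.164, adjusted p = 0.247) in Het and -0.12 (SE 0.196, adjusted p = 0.622) in KO. The ranges of the deposited Het values do not meet, but those of the TMM-scaled values overlapped in both genotypes.
Ntrk3 had values of 284, 208 and 310 in Het retina and 159, 159 and 241 in Het rods, and of 303, 306 and 218 in KO retina and 161, 172 and 217 in KO rods. The log2 fold change was -0.28 (SE 0.232, adjusted p = 0.325) in Het and -0.21 (SE 0.188, adjusted p = 0.346) in KO.
These calls depended on the scaling. With libraries scaled by their totals alone the median of all genes moved to -0.51 in Het and -0.55 in KO, and Epha7 (-0.64 and -0.65) and Ntrk3 (-0.69 and -0.74) were called lower in both. The change between these scalings shifts all genes nearly alike, so that places relative to that median are nearly fixed and say nothing about stability. Tyro3 stood 0.26 above it in Het under both scalings, Epha7 0.12 and 0.13 below and Ntrk3 0.17 and 0.18 below. After correcting every library for its dependence on GC content, the median of all genes moved to 0.36 and 0.39, and Tyro3 was called higher in rods at 0.77 (adjusted p = 0.00301) in Het and 1.01 (adjusted p = 0.0321) in KO. Relative to the median Tyro3 then stood at 0.41 and 0.63, Epha7 at -0.37 and -0.06, and Ntrk3 at -0.42 and -0.19, in Het and KO. With this correction 1 member was higher and 34 were lower in Het (median -3.55), and 1 and 33 in KO. The split of calls over all genes moved with it: 3453 higher and 5923 lower in Het became 1157 and 7417 with library totals and 6912 and 5124 after the GC correction, and 4144 and 5889 in KO became 1125 and 7863, and 7106 and 5125.

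**Figure D2:**
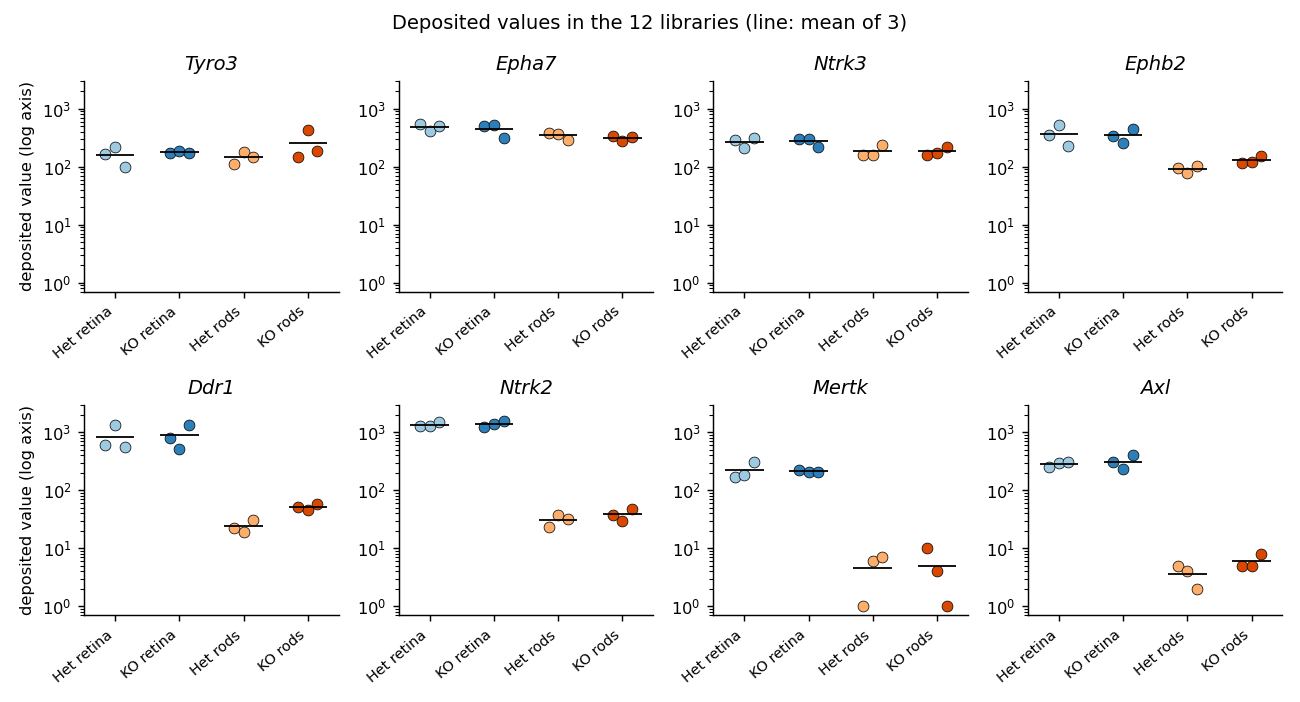
Deposited values (log axis) of 8 receptors in the 12 libraries, with 3 libraries a group side by side and a line at their mean. Tyro3 overlaps between retina and rods, Epha7 in Het and Ntrk3 in KO lie somewhat lower in rods on this scale (before TMM scaling), Ephb2 is lower in rods, and Ddr1, Ntrk2, Mertk and Axl are lower by more than 10-fold.

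The other TAM receptors fell steeply. Axl had values of 257, 292 and 311 in Het retina and of 5, 4 and 2 in Het rods, a 45.3-fold fall (log2 fold change -5.50, SE 0.294, adjusted p = 1.33e-06). This was the largest fitted fall, an order that the pseudocount of 2 helps to set, since Kit, at 104, 146 and 129 in Het retina and 1, 1 and 1 in Het rods, was fitted at -5.24. Mertk, the receptor with which the pigment epithelium takes up shed rod tips, had 171, 187 and 307 in Het retina and 1, 6 and 7 in Het rods, 31.3-fold lower. The rod values of both lay at or near the worth of 3 reads.

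Next to the 3 receptors that were not called came Flt4, Ephb2, Ephb3 and Mst1r. Flt4, the receptor of the lymphatic growth factor VEGF-C, had 47, 59 and 43 in Het retina and 12, 24 and 8 in Het rods, with a log2 fold change of -1.51 (SE 0.387, adjusted p = 0.00846). Ephb2, a receptor of the ephrin-B ligands, had 351, 521 and 223 in Het retina and 94, 77 and 103 in Het rods (-1.66, SE 0.301, adjusted p = 0.0013). In KO it fell by 1.03 on the log2 scale, from 335, 261 and 444 to 116, 120 and 150. Ephb3 had 81, 158 and 65 in Het retina and 18, 34 and 15 in Het rods, with a change of -1.83 (SE 0.415, adjusted p = 0.00448). The 13 Eph receptors, all tested, had 12 called lower and Epha7 not called, beside 36.8% lower and 21.4% higher over all genes. Within EphA the log2 fold changes ran from -5.17 for Epha4 to -0.23 for Epha7, and within EphB Ephb1 stood at -5.08 and Ephb2 at -1.66. Ephb4, at 0 in all Het rod libraries, was called lower too, but its fitted fall depends on the pseudocount and its size is given above as a bound.

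Most of the falls lay in the range of genes that mark other retinal cells. Of 78 markers of cells other than photoreceptors (leaving out Pdgfra and Pdgfrb, members themselves) 72 were tested, with a median of -4.70 in Het and 80% of them between -5.47 and -2.29. Above that range stood 7 members, Tyro3, Epha7, Ntrk3, Flt4, Ephb2, Ephb3 and Mst1r. For Mst1r, with 13, 23 and 10 in Het retina and 1, 1 and 4 in Het rods, the rod values lay near the worth of 3 reads and the pseudocount holds the fitted fall down. Of the markers, 7 were above -2, Otx2 (0.84) and Prkca (0.01) highest. Otx2, listed for bipolar cells, is known from photoreceptors too. The part of RNA from other cells in the rod values of any one member was not tested.

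Ret had values of 633, 790 and 600 in Het retina and of 5, 14 and 20 in Het rods, 42.4-fold lower. Ntrk2 had 1270, 1276 and 1521 in Het retina and 23, 37 and 32 in Het rods, 35.6-fold lower. Epha4, with 706, 556 and 724 in Het retina and 11, 12 and 19 in Het rods, was 35.9-fold lower. These 3 are known from inner retinal neurons and glia. Epha5, with 603, 482 and 617 against 80, 37 and 51, was 8.64-fold lower and ranked 5 in rods, coming from a high retinal level. Pdgfra, the receptor by which retinal astrocytes respond to PDGF, had 225, 210 and 513 in Het retina and 1, 5 and 8 in Het rods, 42.6-fold lower. In these 5 genes the groups were far apart, no rod library reaching a retina library. All 4 ERBB receptors, all 4 of the group of Pdgfra, Pdgfrb, Kit and Flt3, and the 2 FGF receptors that were tested were called lower. Over all genes tested between the Het fractions, 36.8% were called lower and 21.4% higher. Among the ERBB receptors, which bind EGF and its kin, Egfr stood at -4.66, Erbb4 at -4.49 and Erbb3 at -2.58, beside Erbb2 with its bound of at least 39.9-fold. Kit, given above, is the receptor of stem cell factor. Pdgfrb, known from pericytes, stood at -5.04 and Flt3 at -3.60. Met, the receptor of hepatocyte growth factor, stood at -4.29, the endothelial receptor Tie1 at -2.64, the second collagen receptor Ddr2 at -4.49 and the Wnt5a receptor Ror1 at -2.82. The members not tested in Het were Fgfr3, Fgfr4, Ltk, Musk, Ror2 and Ros1. Ros1 had no value above 5 in any library. Fgfr3 was not tested, because Het retina 1 had a value of 3 against 115 and 117 in the other Het retinas.

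The KO libraries gave the falls of the same receptors anew. Ddr1 had values of 605, 1323 and 553 in Het retina and fell 25.4-fold in Het rods, and it had 807, 508 and 1368 in KO retina and fell 12-fold in KO rods. Axl fell 31-fold, Ret 28.8-fold and Ntrk2 27.6-fold in KO. Epha4, at 878, 826 and 522 in KO retina and 21, 8 and 14 in KO rods, fell 36.9-fold. Fgfr3, tested in KO, had 70, 69 and 280 in retina and 2, 3 and 8 in rods, 15.7-fold lower. Closest to retina after the 3 not called were Flt4 (-0.87, SE 0.292, adjusted p = 0.0263), Ephb2 (-1.03, SE 0.232, adjusted p = 0.00392), Ephb3 (-1.35, SE 0.322, adjusted p = 0.00526) and Alk (-1.51, SE 0.281, adjusted p = 0.00131). Erbb3, Fgfr4, Ltk, Musk, Ror2, Ros1 and Tie1 were not tested in KO.

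**Figure D3:**
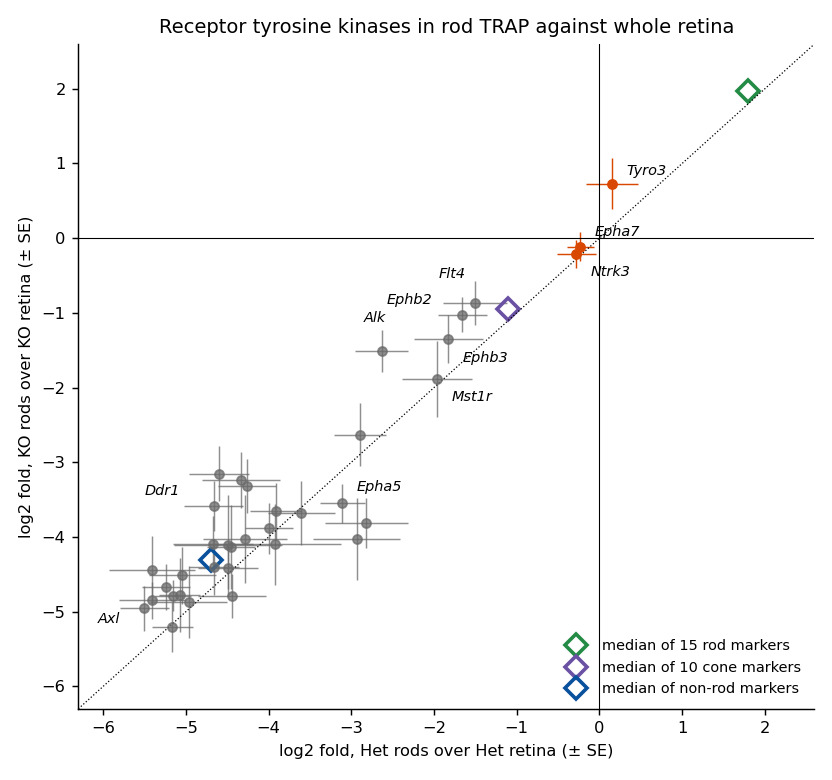
Log2 fold change of rods over retina for the receptors tested in both genotypes, Het on the horizontal and KO on the vertical axis, with bars of 1 SE; orange points were not called in either genotype, diamonds are medians of marker genes and the dotted line marks equal values. Most receptors lie near the median of the non-rod markers (-4.70 in Het), Flt4, Ephb2 and Ephb3 lie near that of the cone markers (-1.11), and Epha7 and Ntrk3 lie near 0, as does Tyro3 on the Het axis (0.73 on the KO axis).

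KO rods were compared with Het rods to ask whether the receptors changed when Shp2 was lost. Of the 44, 15 passed the filter over the rod libraries (13 members had at least 10 in every KO rod library and 9 in every Het rod library), and 2 were called higher (13.3%) and 0 lower. The background was 11.2% called higher and 1.91% called lower of 13055 genes, so that the share of members called higher was near it. Ddr1 had values of 22, 19 and 31 in Het rods, whereas KO rods gave 52, 45 and 59. Its groups did not overlap, as for 23.7% of all genes higher in KO (20.4% were lower in KO without overlap), and it was 2.22-fold higher in KO (log2 fold change 1.15, SE 0.251, adjusted p = 0.00862). Ephb2 rose from 94, 77 and 103 in Het rods to 116, 120 and 150 in KO rods, 1.48-fold higher (log2 fold change 0.57, SE 0.175, adjusted p = 0.0349). Both were called lower in rods than in retina, so that neither remains when rod-depleted genes are left out of the rod comparison, a step of the published analysis. Ddr1 shares 216 bases, 4.52% of its exon length, with the antisense gene Gm4577, and the kit does not mark strand. Ephb2 was no longer called without KO rods 1, 2 or 3 or without Het rods 1 or 2 (limma adjusted p = 0.0582 to 0.112), whereas Ddr1 was called whichever of the 6 libraries was left out. In 1 fit over all 12 libraries neither was called, with Ddr1 at 1.08 (limma adjusted p = 0.19) and Ephb2 at 0.48 (limma adjusted p = 0.318).

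GC content moved with these differences. Every KO rod library read GC-rich genes higher than every Het rod library did: between the highest and the lowest decile of genes by GC content the median log2 deviation differed by 0.42, 0.76 and 0.28 for KO libraries and by -0.81, -0.23 and -0.42 for Het ones. Ddr1, at 59.7% GC, and Ephb2, at 55.4%, lie above the median of the genes tested (49.5%). Above that median 22.2% of all genes were called higher in KO rods, and at or below it 0.325%. With the GC trend of each library removed Ddr1 stood at 0.43 (SE 0.278, adjusted p = 0.394) and Ephb2 at 0.19 (SE 0.18, adjusted p = 0.581), and 0 members were called. Genotype and GC trend cannot be told apart in these 6 libraries. The summed Müller glia markers overlapped, at 2240, 2746 and 3765 for Het rods against 2548, 2346 and 3261 for KO rods. Of the 10 single Müller markers, however, 2 were called higher in KO rods, Apoe (1.04) and Clu (0.55), and 0 lower. The 10 ran from -1.08 to 1.04 with a median of 0.16. Of 6 amacrine markers tested 1 was called higher, Slc6a9 (0.72), as were 4 of 15 rod markers. Of the 9 bipolar and 8 ganglion cell markers tested 0 were called. Over all genes 11.2% were called higher and 1.91% lower. The part of RNA of other cells in the rise of Ddr1 and Ephb2 was not tested.

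**Figure D4:**
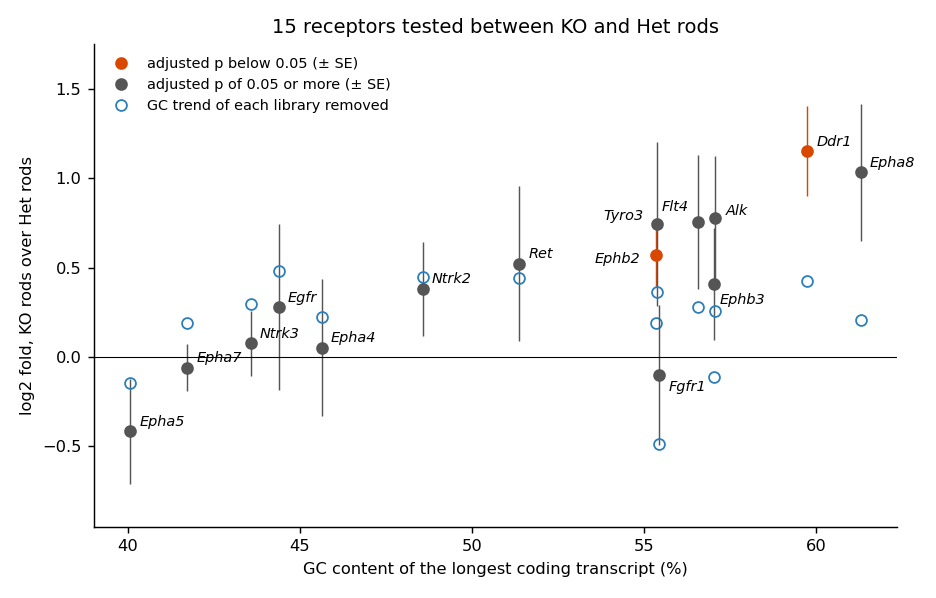
Log2 fold change of KO over Het rods for the 15 receptors tested (filled points with 1 SE) against the GC content of their longest coding transcript, with the value after removal of each library's GC trend (open circles). Ddr1 (1.15) and Ephb2 (0.57) are the 2 called, and after the removal they stand at 0.43 and 0.19.

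The other 13 did not pass the threshold. Tyro3 stood at 0.74 (95% interval -0.41 to 1.90, adjusted p = 0.295) and at 0.26 without KO rods 2, where its value was 431 against at most 185 in any other rod library. Epha7 stood at -0.06 (-0.35 to 0.22) and Ntrk3 at 0.08 (-0.33 to 0.48). With the GC trend removed they stood at 0.19 (SE 0.113) and 0.30 (SE 0.18). Alk (0.77, adjusted p = 0.126) and Epha8 (1.03, adjusted p = 0.0683), with values of 7 to 8 and 5 to 8 in Het rods against 11 to 16 and 11 to 18 in KO rods, were not called. Both, like Fgfr1, Flt4 and Ret, passed the filter through their KO rod libraries and would not have done so through those of Het rods. Fgfr1 was still not the higher one in KO (-0.10), at 14, 14 and 13 against 8, 17 and 27. The remaining 29 members did not pass the filter in rods.

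In whole retina, KO was compared with Het. None of the 39 members tested was called by limma, 0 of them had an unadjusted p below 0.05, and 0% of all 16863 genes were called in either direction (140 at an unadjusted p below 0.05). Groups overlapped for all 39, and over all genes 1.54% were higher and 1.99% lower in KO without overlap. The median over members was 0.07. The smallest p from limma belonged to Epha2, an ephrin-A receptor of epithelia and lens (0.82, 95% interval -0.76 to 2.40), and to the FGF receptor Fgfr3 (1.46, -1.46 to 4.38), both with a limma adjusted p of 1. Epha2 had values of 15, 70 and 23 in Het retina and 33, 36 and 123 in KO retina. Fgfr3 had 3, 115 and 117 in Het and 70, 69 and 280 in KO. Without Het retina 1 the log2 fold change of Fgfr3 was -0.07. Tighter intervals were had for Ntrk2 (0.06, -0.33 to 0.44), Ret (0.02, -0.37 to 0.42), Axl (0.09, -0.48 to 0.67) and Mertk (0.00, -0.59 to 0.60).

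Some receptors spread widely between single retinas of a genotype. Over the 6 retina libraries Fgfr3 ran from 3 to 280, Fgfr2 from 48 to 443, Ddr2 from 51 to 271, Epha2 from 15 to 123 and Ephb4 from 31 to 134. These 5 were named after their values were seen. Each was highest in KO retina 3, the library with the highest lens, RPE and pericyte sums, and Fgfr3, Fgfr2 and Epha2 were lowest in Het retina 1, the library with the lowest lens sum. The Müller glia sum was lowest and highest in the same 2 libraries (55651 and 88905). Epha8, from 96 to 377, went another way and was highest in Het retina 2 and lowest in Het retina 3. The retina libraries also differed in their GC trend, measured as in rods, which was 0.859 in Het retina 2 and 0.898 in KO retina 3 and -0.835 in Het retina 3. Epha8 has a GC content of 61.3% and had its 2 highest values, 377 and 298, in the first 2 of these libraries. The part of GC trend and of lens, RPE, pericyte or Müller glia RNA in these values was not tested. Of the 31 members with at least 30 in every retina, 15 varied by less than 2-fold, Ntrk2 (1262 to 1592) among them.

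**Figure D5:**
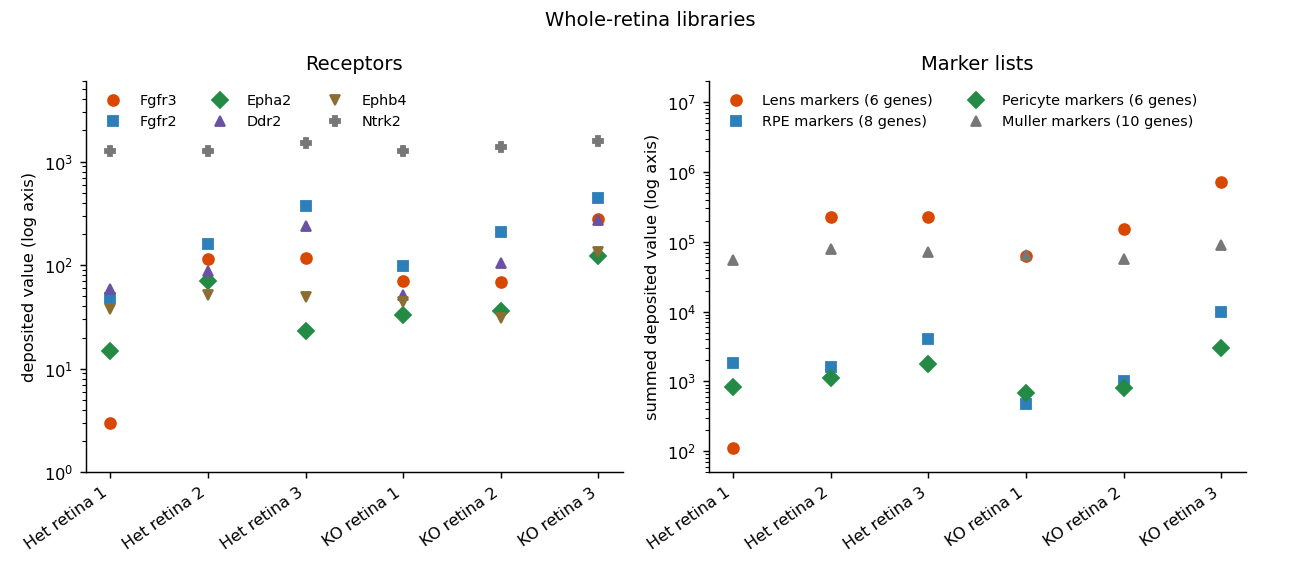
Deposited values of 6 receptors (left) and summed values of 4 marker lists (right) in the 6 whole-retina libraries, on log axes. Fgfr3 is 3 and the lens sum 113 in Het retina 1, both are highest in KO retina 3, Ntrk2 stays between 1262 and 1592, and the Müller glia sum is 55651 in Het retina 1 and 88905 in KO retina 3, its lowest and highest values.

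Whether the KO effect differed between the fractions was tested with an interaction term fitted to the 12 libraries. Of 39 members tested 0 were called by limma, as were 0% of 17192 genes in either direction, while 2 members and 604 genes had an unadjusted p below 0.05. The 2 were Erbb2 (1.38, SE 0.523, adjusted p = 0.803), listed at 0 in every Het rod library and at 3, 4 and 2 in KO rods, with 44, 82 and 36 in Het retina and 41, 42 and 79 in KO retina, and Alk (0.98, SE 0.399, adjusted p = 0.803), a receptor of neuronal development, with 8, 7 and 7 in Het rods, 11, 16 and 13 in KO rods, 58, 95 and 50 in Het retina and 67, 48 and 46 in KO retina. The rod values of Erbb2 were within the worth of a few reads.

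Outside the 44, 14 further receptor tyrosine kinases were read from a list. Of 13 tested in the Het comparison 1 was called higher in rods and 9 lower, against 21.4% and 36.8% of all genes. Insr, the insulin receptor, was the one higher, with 1983, 1571 and 1801 in Het retina and 2408, 2171 and 2150 in Het rods (log2 fold change 0.58, SE 0.116, adjusted p = 0.00215), and in KO mice it was higher by 0.60 (adjusted p = 0.00322). Igf1r, the receptor of insulin-like growth factors, had 2690, 2490 and 2134 in Het retina and 2291, 2328 and 2320 in Het rods and was not called (0.18, adjusted p = 0.2). Their levels per length in Het rods, 42.1 ± 3.70 and 35.6 ± 0.584, were above those of all 44 members, as were those of Ryk, a Wnt receptor without kinase activity (40.1 ± 3.29), and Lmtk2 (19.6 ± 1.71), neither of them called (0.16 and 0.05). With libraries scaled by totals alone Insr was no longer called (0.17 in Het and 0.06 in KO) and Igf1r stood at -0.24 and -0.16, while after the GC correction both were called higher in both genotypes.

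Many listed ligands did not pass the filter, and most of those that did needed only their retina libraries for it. Pspn and Fgf5 passed it in the Het comparison only with the help of rod libraries. Of all genes tested, 36.8% were called lower and 21.4% higher. All 7 ephrins tested were called lower in Het rods (median -4.36), the nearest to retina being Efna2 at -1.42, and so were all 6 tested ligands of PDGF, VEGF-C, KIT and FLT3 receptors (median -3.87) and all 3 tested of 5 ligands of ALK, ROR, MUSK and ROS1. Of 9 tested EGF family ligands 6 were called lower and 1 higher, betacellulin (Btc), with 204, 221 and 231 in Het retina and 364, 502 and 397 in Het rods (1.17, adjusted p = 0.000386). Of 6 tested FGFs 4 were called lower and 1 higher, Fgf2, with 674, 609 and 597 against 917, 1285 and 872 (0.94, adjusted p = 0.00107). Persephin (Pspn), a GDNF family ligand, was called higher as well (1.10, limma adjusted p = 0.0346), at values of only 14, 24 and 27 in Het rods. Het retina had 13, 14 and 6, so that its rod libraries, where it is high, carried it past the filter. By library totals Btc (0.76) and Fgf2 (0.52) were still called in Het and Pspn (0.74, adjusted p = 0.131) was not.
Gas6, a ligand of Tyro3, Axl and Mertk, was abundant in both fractions. It had 2206, 3405 and 1534 in Het retina, 2247, 3031 and 2504 in Het rods, 2124, 1759 and 3586 in KO retina and 3621, 4768 and 3415 in KO rods. It was not called between Het fractions (0.44, adjusted p = 0.187) and was called higher in KO rods than in KO retina (1.08) and than in Het rods (0.68, SE 0.168, adjusted p = 0.0258). After the GC correction the Het fractions differed by 1.18 (called) and KO from Het rods by 0.20 (adjusted p = 0.168), and by library totals the KO fractions differed by 0.55 (adjusted p = 0.0825). Protein S (Pros1), the other TAM ligand tested, was called lower in Het rods (-2.12).

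Among 13 tested co-receptors and inhibitors, 9 were called lower in Het rods (36.8% of all genes), Gfra1 and Gfra4 of the Ret complex and Nrp1 and Nrp2 among them. Lrig1, a membrane protein that restrains ERBB receptors, was called higher, with 618, 918 and 568 in Het retina and 943, 1127 and 963 in Het rods (0.80, adjusted p = 0.00678), though not by library totals (0.39, adjusted p = 0.111). Of the 17 proteins that act next to the receptors, Shp2 and adaptors, 8 were called lower and 0 higher, beside 36.8% lower and 21.4% higher over all genes. Ptpn11 had the highest log2 fold change of the list at 0.32 (SE 0.109, adjusted p = 0.0298), under the size threshold, but -0.09 by library totals. Gab2, Shc2 and Shc3 fell by 4.14, 4.91 and 4.19 on the log2 scale. In KO against Het rods 15 genes of that list were tested and 1 was called higher, beside 11.2% of all genes. It was Irs2, the adaptor of the insulin and IGF1 receptors (0.51, limma adjusted p = 0.0112), and after the GC correction it stood at 0.03.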

How the data were processed

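RNA of whole retina and of rod TRAP was read with a kit that does not mark strand. The submitters' processing notes name CASAVA 1.8.2, HISAT2, DESeq2, edgeR and the build GRCm39, with no role or order. The authors deposited 1 table of whole-number values per gene, a signal proportional to read counts, since each library was scaled by 1 factor and rounded (inferred from the values). No count model was therefore used, but limma 3.58.1 in R 4.3.3. Values of genes with about 10 or more in at least 3 libraries and a sum of at least 15 were scaled with TMM factors and analysed as log2 of the value plus a pseudocount of 2, so folds of low genes are understated. Each comparison was fitted on its own libraries over all genes (trend and robust options), with Benjamini-Hochberg adjustment over all genes tested. With 3 against 3 libraries the smallest exact permutation p is 0.1. The method was tested on simulated data. No sample outside the series had a column (0 found).

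The 44 members, the 10 lists of related genes and the 13 marker lists were chosen with earlier results of these data known. Genes were singled out by rule, and their values are not all printed for every library. They were the 8 highest in Het rods, the 4 highest in Het retina, those not called lower in rods and those called between genotypes. The 2 with the smallest p in a comparison without calls and the 3 largest falls were added. Of the related and marker lists, some genes of high mean or called higher in rods or between genotypes were named, but not all of them. Other genes named with values were chosen after their values were seen. Transcript length, GC content and overlaps come from GENCODE M21 (GRCm38), to which 52073 genes matched by identifier, and no coordinates of genes were taken from it. Pairing was checked by correlating deviations from group means: Het rods and Het retina of the same number correlated at 0.468, 0.412 and 0.252, KO rods and KO retina at 0.333, -0.0122 and 0.184. The numbers, which come from the titles, thus paired the Het fractions. Alternatives were other scalings, pseudocounts, filters, the replicate block, removal of the GC trend, 1 fit over all 12 libraries and leaving out each library. Protein sequences were not used here. Python 3.11.15 with pandas 2.3.3 and matplotlib 3.10.9 did the rest.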

Additional observations from a re-analysis of the deposited data

How the results depend on the processing

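With 3 libraries a group and rod values of many members near the worth of 3 reads, small changes of low receptors were not detectable at this depth. The number of members called kept to 35 to 37 between Het fractions and 33 to 36 between KO fractions when 1 library was left out, with 0 in retina and in the interaction. The replicate block left the Het fractions at 35 called and KO fractions at 34, and changed no call there. Its numbers pair the KO fractions less clearly than the Het ones, with a correlation of -0.0122 for KO number 2.

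The 2 members called between KO and Het rods became 1 with library totals as the scale, 1 with a filter of at least 50, 0 with the GC trend removed, 0 with the GC trend removed and the replicate block, 0 in 1 fit over all 12 libraries, 0 with rod-depleted genes removed (3 members are then tested), and 1 to 2 when 1 library was left out. The replicate block alone gave 3, adding Tyro3 (limma adjusted p = 0.0149). However, no source ties a number to both genotypes, and the pairs deviate together only weakly (same-number correlations of 0.183, 0.0334 and 0.0258). Calls over all genes with the block or with the filter of at least 50 are not given here, so these counts of members have no background beside them. Over all genes 1460 called higher and 250 called lower became 1202 and 586 with library totals, 176 and 165 with the GC trend removed, 769 and 153 without the trend and robust options of limma, 803 and 148 without Het rods 1, and 0 and 0 in 1 fit over all 12 libraries.

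These log2 fold changes turned their sign, all of them of members not called in the main comparison. In Het fractions Tyro3 became -0.26 with library totals, and ran from -0.0518 (without Het retina 3) to 0.43. In KO fractions, with the GC trend removed with or without the block, Epha7 became 0.32 and Ntrk3 0.20, and leaving out 1 library put Epha7 between -0.324 and 0.0151. In KO against Het rods Ntrk3 became -0.0068 with library totals, -0.0101 in 1 fit over all 12 libraries, and ran from -0.0504 to 0.264 with 1 library left out. Epha4 became -0.0183 with library totals and -0.0218 in 1 fit, and ran from -0.23 to 0.34 with 1 library left out. Epha7 became 0.19 with the GC trend removed, with or without the block, and ran from -0.191 to 0.00517 with 1 library left out, and Ephb3 became -0.11 with the GC trend removed, with or without the block. Fgfr3 in retina ran from -0.0746 (without Het retina 1) to 2.24. The causes of these turns were not tested. With the union of all exons as length, levels in Het rods became 1.81 for Ephb2, above Ntrk3 (1.54), 1.25 for Ddr1, above Epha5 (0.839), and 0.395 for Ntrk2, which then left the highest 8 with Ret (0.475) in its place, and 5 members reached a level of 1.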
